A study of Mus musculus with 53 samples.

Results

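The Hippo pathway is described here through 34 genes in the cerebellum of Insm1 and Tead1/2 conditional mutant mice: 22 genes of the pathway itself and 12 genes commonly read as transcriptional targets of its output. The members were chosen by gene symbol, with earlier results of these data known, and all 34 are present among the 55573 genes of both postnatal day 2 (P2) tables and among the 57010 genes of the postnatal day 7 (P7) gene list. At P2, RNA of 1 cerebellum per animal was sequenced in bulk from 4 Insm1fl/fl controls, 4 Insm1fl/fl;Atoh1Cre mutants, 3 Tead1fl/fl;Tead2fl/fl controls and 4 Tead1fl/fl;Tead2fl/fl;Atoh1Cre mutants. At P7, single cells of 10 cerebella were sequenced: 2 controls and 3 mutants of each allele, with the same genotypes. The controls carry the floxed alleles and no Cre. Atoh1Cre is active in the rhombic lip lineage that gives rise to granule cells, so cells outside that lineage are expected to keep intact alleles. The first P7 library of each group held all lobules, and the others lacked lobules IX and X.

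The Hippo pathway is a kinase cascade. The kinases Stk3 and Stk4, with the adaptor Sav1, phosphorylate Lats1 and Lats2, which act with the adaptors Mob1a and Mob1b and in turn phosphorylate the coactivators Yap1 and Wwtr1 (TAZ) and keep them out of the nucleus. In the nucleus these coactivators bind the TEAD transcription factors, 2 of which carry the floxed alleles in the Tead1/2 line, and raise the transcription of genes such as Ccn1 and Ccn2. Scaffolds at the membrane (Nf2, Wwc1, Wwc2, Amot, Ptpn14, Frmd6) and the giant cadherins Fat4 and Dchs1 feed into the cascade, while the LIM proteins Ajuba, Limd1 and Wtip hold the Lats kinases in check.

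TEAD factors recognise CATTCC, or GGAATG on the other strand. Of the 8 target members with a promoter window of 300 bases (250 before and 50 after the start) in the RefSeq table for GRCm38.p6, 5 held either word, and 7 of 18 pathway members with a window did; 14.7% of all 32851 windows do. The 5 target windows are printed because they show which targets have the word of the TEAD factors next to the start used for the window. The word is in capitals and the rest is in lower case, read 5′ to 3′ on the gene's strand. Ccn1 lies on the minus strand at chr3:145649936-145650235, Ankrd1 on the minus strand at chr19:36119795-36120094, Amotl2 on the plus strand at chr9:102717554-102717853, Axl on the minus strand at chr7:25788684-25788983 and Crim1 on the plus strand at chr17:78199998-78200297.
Ccn1: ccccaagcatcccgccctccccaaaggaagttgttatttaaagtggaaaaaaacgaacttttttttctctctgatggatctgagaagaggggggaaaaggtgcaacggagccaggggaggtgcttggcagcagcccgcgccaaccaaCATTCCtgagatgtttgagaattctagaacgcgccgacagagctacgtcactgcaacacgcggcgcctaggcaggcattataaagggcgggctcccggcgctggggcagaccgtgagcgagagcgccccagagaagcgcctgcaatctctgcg
Ankrd1: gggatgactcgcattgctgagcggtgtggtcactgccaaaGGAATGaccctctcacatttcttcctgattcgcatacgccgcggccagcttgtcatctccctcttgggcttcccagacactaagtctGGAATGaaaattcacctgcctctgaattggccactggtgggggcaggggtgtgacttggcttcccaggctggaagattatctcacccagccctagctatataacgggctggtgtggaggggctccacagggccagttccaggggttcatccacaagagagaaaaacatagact
Amotl2: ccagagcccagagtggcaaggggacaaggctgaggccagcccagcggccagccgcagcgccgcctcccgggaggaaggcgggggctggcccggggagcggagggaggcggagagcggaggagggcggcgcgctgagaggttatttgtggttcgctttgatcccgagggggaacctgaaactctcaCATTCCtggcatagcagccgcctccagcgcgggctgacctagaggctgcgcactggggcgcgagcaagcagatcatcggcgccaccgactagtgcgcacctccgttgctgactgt
Axl: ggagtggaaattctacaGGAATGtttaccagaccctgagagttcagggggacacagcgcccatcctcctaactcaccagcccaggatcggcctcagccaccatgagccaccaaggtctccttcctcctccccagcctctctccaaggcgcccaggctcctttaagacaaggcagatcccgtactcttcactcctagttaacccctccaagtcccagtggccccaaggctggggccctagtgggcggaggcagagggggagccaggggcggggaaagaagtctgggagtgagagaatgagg
Crim1: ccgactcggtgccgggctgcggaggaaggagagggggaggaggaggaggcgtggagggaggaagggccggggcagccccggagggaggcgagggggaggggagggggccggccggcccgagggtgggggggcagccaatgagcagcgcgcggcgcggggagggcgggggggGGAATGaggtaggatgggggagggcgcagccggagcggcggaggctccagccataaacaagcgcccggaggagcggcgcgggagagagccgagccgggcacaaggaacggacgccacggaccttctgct
The word begins 103 bases before the start in Ccn1, 65 in Amotl2, 233 in Axl and 79 in Crim1, and Ankrd1 holds it at 210 and at 123 bases. The windows of Amotl1, Tgfb2 and Lhfp hold no such letters. Some windows lie inside the gene. Amotl1, on the minus strand, ends at 14662974 on chromosome 9, and its window is at 14614951 to 14615250. Tgfb2, also on the minus strand, ends at 186709697 on chromosome 1, and its window is at 186705940 to 186706239. Other starts of these genes were not searched. A match in letters is a description of the window and was not tested as a binding site.

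Depth and labels were checked first. The P2 libraries held 28066726 to 64518819 expected counts, and the P7 libraries held 4587 to 10281 cells after filtering, with a median of 6657 to 9793 UMIs per cell and 0 barcodes shared between libraries. Insm1 at P2 was at 30.8 to 71.6 CPM (counts scaled to the library total) in controls and at 8.39 to 16.1 in the mutants. Tead1 was at 33.4 to 54.2 CPM in Tead1/2 controls and at 38.1 to 50.7 in mutants, so the level of the whole gene does not check that label, and Tead2 was at 21.5 to 25.7 CPM in controls and at 17.6 to 20.1 in mutants 1 to 3. The library labelled Tead1/2 mutant 4 stood apart, with Tead2 at 26.2 CPM and with the muscle gene Myog at 0.419 CPM against 18.8 to 38.0 in the other mutants. The summed CPM of 18 muscle markers was likewise 203 to 275 in Tead1/2 mutants 1 to 3, 40.3 to 44.6 in controls and 39.6 in the library labelled mutant 4, and the P2 results on this allele that turn on it are given with and without it. In each P2 list of 4 Tead1/2 mutants below, the last value is that of this library. The 2 alleles were sequenced in separate P2 batches, so allele and batch cannot be told apart.

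At P2 few members passed the test, and 1 target, Lhfp, had the largest fold change in both alleles. Of the 33 members that passed the filter on low counts, 1 was called in Insm1 mutants at an adjusted p under 0.05 by edgeR's quasi-likelihood test, beside 0.689% of all genes tested. In Tead1/2 mutants 0 members were called and 0% of all genes, while 14 members had an unadjusted p under 0.05, beside 20% of all genes, and DESeq2 called 1 member beside 6.28% of all genes. Without the library labelled mutant 4, edgeR called 2 members in the Tead1/2 comparison, beside 3.19% of all genes, and with all libraries and a replicate block, in which that library has no partner, 2, beside 1.17%. The median log2 fold change of the members was -0.01 in Insm1 mutants and -0.02 in Tead1/2 mutants (0.02 without the library labelled mutant 4), against 0.01 and -0.01 over all genes. Ankrd1 was at 0.1 CPM or below in every P2 library and was not tested.

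Lhfp, which encodes a membrane protein of the tetraspan type, was at 29.4, 27.9, 28.6 and 24.1 CPM in the 4 control cerebella of the Insm1 line, against 49.6, 44.1, 45.4 and 42.7 in its 4 mutants. In the Tead1/2 line it was at 32.6, 29.7 and 30.1 CPM in controls, at 58.5, 55.2 and 56.3 in mutants 1 to 3 and at 31.9 in the library labelled mutant 4. Thus every Insm1 mutant lay above every control, and in the Tead1/2 line mutants 1 to 3 lay above the controls while the library labelled mutant 4 fell among them. The log2 fold change was 0.74 ± 0.08 (SE) in Insm1 mutants (adjusted p = 0.0026, edgeR), a call that held in all 12 alternative fits. It was 0.68 ± 0.18 in Tead1/2 mutants (adjusted p = 0.11, edgeR) and 0.85 ± 0.06 without the library labelled mutant 4 (adjusted p = 9.8e-05, edgeR). Lhfp lies at chromosome 3, 53041547 to 53261679 (GRCm38.p6), where RefSeq places C130075A20Rik over part of it, and the strand setting of the counting is not given in the sources used here.

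Amotl2, an angiomotin-family scaffold that is both a target and a partner of Yap1, was called at P2 in Tead1/2 mutants by DESeq2 (adjusted p = 0.038) and, without the library labelled mutant 4, by edgeR. It was at 55.4, 49.5, 55.9 and 59.6 CPM in Insm1 controls and at 55.7, 61.1, 70.5 and 68.8 in Insm1 mutants, groups that overlapped. In the Tead1/2 line controls were at 44.7, 51.5 and 50.2 CPM, mutants 1 to 3 at 64.0, 73.7 and 75.1, and the library labelled mutant 4 at 48.8, within the controls. Amotl2 rose by 0.51 ± 0.08 on the log2 scale without that library (adjusted p = 0.0091, edgeR), and differed by 0.39 ± 0.13 with it (adjusted p = 0.15).

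Nuak2, an AMPK-related kinase listed as a target, lay below the controls in the mutants of both alleles, the library labelled mutant 4 aside, without passing the test. It was at 9.88, 8.73, 9.31 and 9.09 CPM in Insm1 controls, at 7.86, 7.49, 7.90 and 5.93 in Insm1 mutants, at 8.64, 8.89 and 7.79 in Tead1/2 controls, and at 6.10, 6.73, 6.80 and, in the library labelled mutant 4, 8.73. Its log2 fold change was -0.33 in Insm1 mutants (adjusted p = 0.33, edgeR), -0.29 in all Tead1/2 mutants (adjusted p = 0.21) and -0.40 in those without mutant 4 (adjusted p = 0.0502). Ccn1 and Ccn2, secreted matricellular proteins and the most used readouts of Yap1 activity, were low at this age: Ccn1 was at 1.3 to 3.14 CPM and Ccn2 at 1.38 to 2.72 CPM over the 15 libraries, and neither was called in any P2 comparison. In the Tead1/2 line Ccn2 was at 2.03, 1.38 and 1.67 CPM in controls and at 2.15, 2.43 and 2.24 in mutants 1 to 3 and 2.29 in the library labelled mutant 4, each above the controls (log2 0.40, adjusted p = 0.21, and 0.40, adjusted p = 0.24, without mutant 4, edgeR). Apart from Lhfp and Amotl2, the fold changes of the tested members lay between -0.33 (Nuak2) and 0.24 (Wtip) on the log2 scale in Insm1 mutants and between -0.29 (Nuak2) and 0.40 (Ccn2) in Tead1/2 mutants, or -0.40 and 0.40 of the same members without mutant 4.

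With the filter on low counts, edgeR called none of the kinases and their regulators at P2. Without that filter it called Lats2 in Tead1/2 mutants (adjusted p = 0.036), beside 3.14% of all genes, and DESeq2 without mutant 4, a fit chosen after seeing the data, called Lats2, Taok2, Limd1 and Nuak2 (adjusted p = 0.025, 0.034, 0.029 and 0.037) as well as Amotl2 and Lhfp, beside 6.74% of all genes. Lats2 was at 22.9, 22, 19.6 and 24.3 CPM in controls of the Insm1 line, against 19.8, 23.0, 21.9 and 21.3 in its mutants, and at 19.3, 17.6 and 16.9 CPM in controls of the Tead1/2 line, against 21.2, 26.4, 21.6 and 19.3 in mutants 1 to 4. Taok2, a kinase upstream of the cascade, was at 97.9, 104 and 96.1 CPM in Tead1/2 controls and at 81.3, 90.6, 91.3 and 95.8 in mutants, and at 133, 111, 112 and 131 CPM against 86.2, 117, 110 and 114 in the Insm1 line. Without mutant 4, Lats2 lay above and Taok2 below every Tead1/2 control, with adjusted p of 0.062 and 0.084 (edgeR). Stk3 was at 24.05 to 27.23 CPM in Tead1/2 controls and 27.96 to 29.87 in the 4 mutants. Stk4 was at 49.88 to 51.62 against 53.08 to 58.07. Both lay above the controls with and without mutant 4, were not called, and overlapped between groups in the Insm1 line. Among the adaptors, Mob1a was at 66.1, 65 and 63.8 CPM in Tead1/2 controls and at 70.4, 77.3, 70.9 and 69.9 in mutants, and Sav1 at 24.0, 23.7 and 22 against 24.6, 27.3, 24.3 and 24.4. For both adaptors mutants 1 to 3 and the library labelled mutant 4 lay above the controls, without passing the test, and in the Insm1 line both overlapped between groups, Mob1a at 60.0, 63.1, 69.0 and 60.9 CPM against 70.7, 57.6, 64.3 and 60.3, and Sav1 at 24.8, 26.8, 24.9 and 27.5 against 22.5, 23.6, 27 and 25.5.

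Of the inhibitors of the Lats kinases, Limd1 was at 41.2, 40.1, 43.2 and 37.8 CPM in Insm1 controls and at 37.5, 35.8, 37.1 and 36.7 in Insm1 mutants. In the Tead1/2 line it was at 39.3, 38.9 and 36.4 CPM in controls and at 43.4, 46.4, 46.6 and 40.2 in mutants (log2 0.18, adjusted p = 0.15, and 0.22, adjusted p = 0.055, without mutant 4, edgeR). In the Insm1 line each mutant value was below every control, and in the Tead1/2 line mutants 1 to 3 and the library labelled mutant 4 were above, but the difference between the alleles, -0.31 on the log2 scale, did not pass adjustment (adjusted p = 0.45, edgeR), nor did that of any other member, with or without mutant 4, beside 0% of all genes. Wtip, another LIM protein, was at 7.59, 7.15, 8.28 and 8.31 CPM in Insm1 controls and at 9.53, 8.30, 9.60 and 9.27 in mutants, and at 8.24, 7.94 and 7.76 against 8.68, 10.45, 8.76 and 8.89 in the Tead1/2 line.

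Of the membrane scaffolds, Ptpn14, a phosphatase-like protein that binds Yap1, was at 12.1, 10.4, 9.22 and 10.7 CPM in Insm1 controls and at 6.36, 9.78, 8.96 and 9.52 in mutants, and at 7.47, 6.26 and 6.39 against 5.36, 6.89, 7.11 and 6.02 in the Tead1/2 line. Nf2, the merlin tumour suppressor, was at 155, 138, 132 and 147 CPM against 125, 133, 136 and 134, and at 132, 139 and 128 against 123, 130, 129 and 128. Fat4 was at 181, 153, 152 and 173 CPM against 134, 184, 186 and 182, and at 153, 135 and 114 against 117, 112, 154 and 119. In each of these the groups overlapped. Dchs1, the ligand of Fat4, was at 192, 151, 148 and 185 CPM in Insm1 controls and 95.2, 157, 155 and 164 in mutants, and at 111, 114 and 96.1 against 81.6, 94.0, 105 and 99.9 in the Tead1/2 line, so its groups overlapped as well, with Insm1 mutant 1 lowest of its line.

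**Figure D1:**
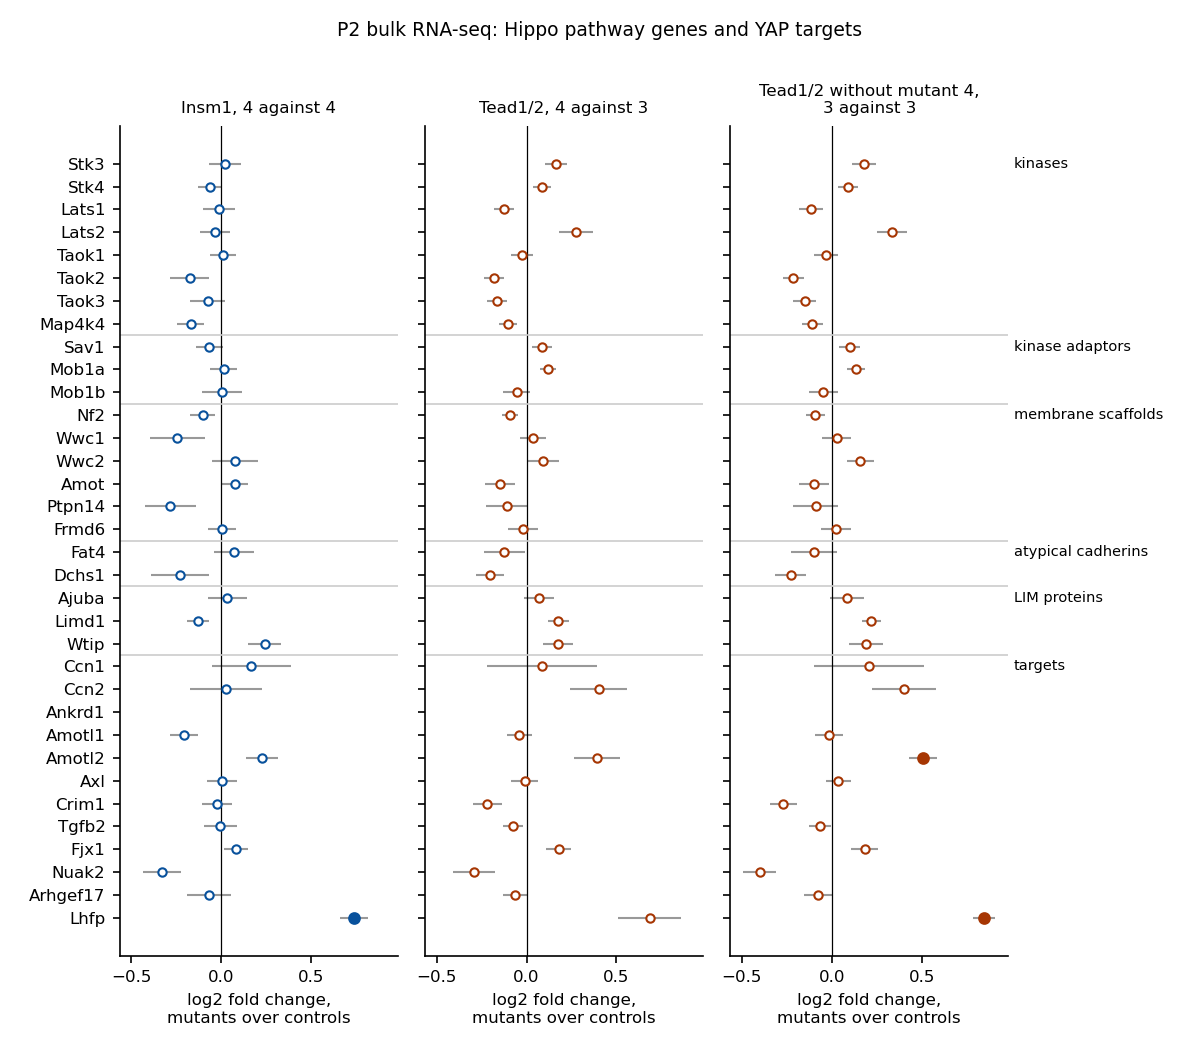
Log2 fold change ± SE of each member at P2, ordered by role, in Insm1 mutants (4 against 4 libraries), Tead1/2 mutants (4 against 3) and Tead1/2 mutants without the library labelled mutant 4 (3 against 3); filled points passed an adjusted p of 0.05. Lhfp passes in Insm1 mutants and in Tead1/2 mutants without that library, Amotl2 in the latter, while the kinases, adaptors and scaffolds lie around 0.

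**Figure D2:**
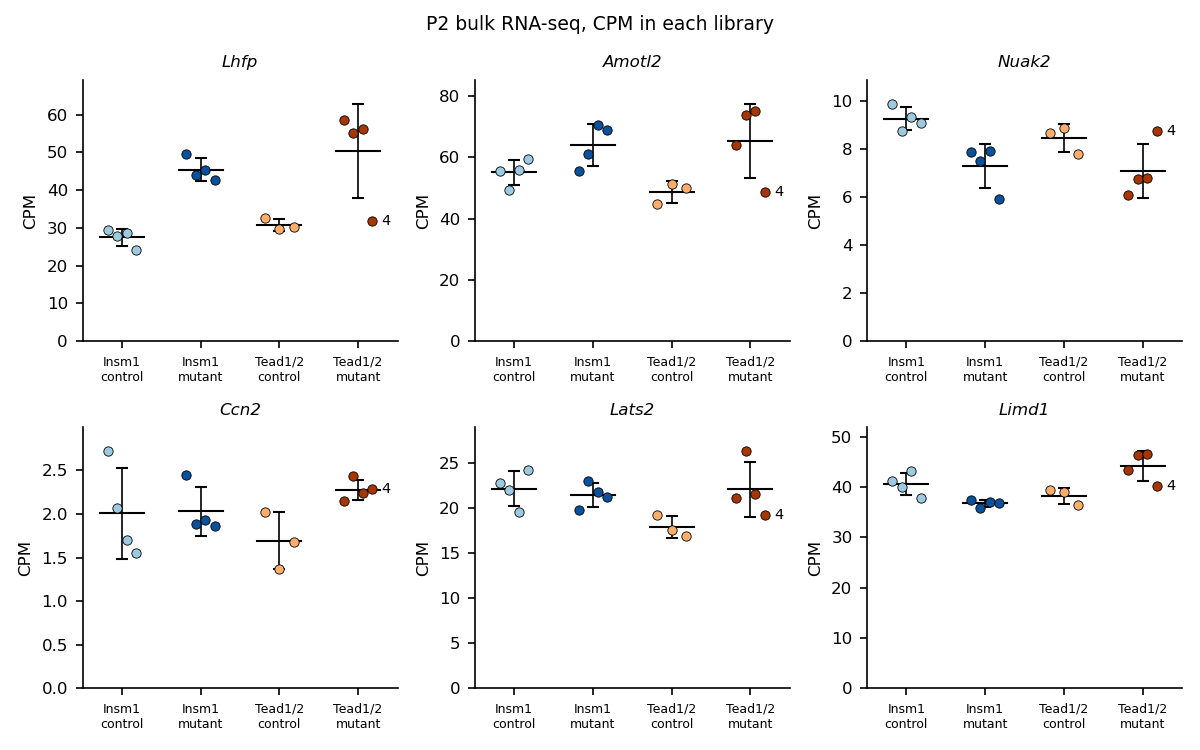
CPM of 6 members in each P2 library by group, with the mean and SD of each group; the digit 4 marks the library labelled Tead1/2 mutant 4. For Lhfp and Amotl2 that library sits at the level of the controls, 31.9 and 48.8 CPM.

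At P7, cells were assigned to classes from marker genes, and a class is called by the cell type its markers resemble. Across the classes the members fell into a few patterns. Mural-like cells, of the vessel wall and found as 6 to 56 cells per library (those with under 10 left out), held the highest mean level of 8 members: Lhfp (931 CPM), Arhgef17 (194), the angiomotin relative Amotl1 (179), Crim1 (126), Limd1 (75.1), the receptor tyrosine kinase Axl (73.5), Wtip (29.3) and Ajuba (22.4). Endothelial-like cells led for Wwc2 (153 CPM), Taok2 (85.0), Lats2 (61.7) and Sav1 (45.1), and meningeal fibroblast-like cells for Fat4 (126), Frmd6 (124), Ptpn14 (85.1) and Ccn2 (4.94). The Ccn2 mean of meningeal fibroblast-like cells was 3.53 and 3.52 CPM in controls and mutants of the Insm1 line and 2.27 and 9.08 in the Tead1/2 line. Microglia-like cells led for Taok3 (133 CPM), Stk4 (112), Mob1a (52.9) and Nuak2 (18.3), and muscle-like cells for Tgfb2 (207), Mob1b (147), Amotl2 (131) and Ankrd1 (3.94), where the means come from the 6 mutant libraries alone and those of other classes include controls.

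Neural classes led for the rest. Granule progenitor-like cells held the highest levels of Stk3 (322 CPM) and Lats1 (106), a kinase of each tier of the cascade, ependymal-like cells of Wwc1 (284), Taok1 (246) and Ccn1 (16.4), and astroglia-like cells of Amot (68.5) and Fjx1 (15.4), the latter a kinase of the secretory pathway that acts on Fat and Dachsous cadherins. The mean of Nf2 was highest in Purkinje-like cells (118 CPM), through the Tead1/2 line (152 CPM in controls and 132 in mutants), where a library held 9 to 24 such cells. In Insm1 controls it was at 110 CPM there and at 111 in endothelial-like cells. Dchs1 was highest in GABAergic interneuron-like cells (93.9) and Map4k4, a kinase acting in parallel to Stk3 and Stk4, in oligodendrocyte-like cells (952). These are means over libraries that include mutants, and the leading class can differ between groups: Stk3 was highest in granule progenitor-like cells of Insm1 controls, but in Insm1 mutants mural-like cells held 312 CPM and progenitor-like cells 307. In Tead1/2 controls mural-like cells held 336.9 CPM of Stk3 and progenitor-like cells 333.8. In Tead1/2 mutants ependymal-like cells held 320.9 CPM and progenitor-like cells 277.4. The values describe levels within 1 gene across classes, not between genes.

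**Figure D3:**
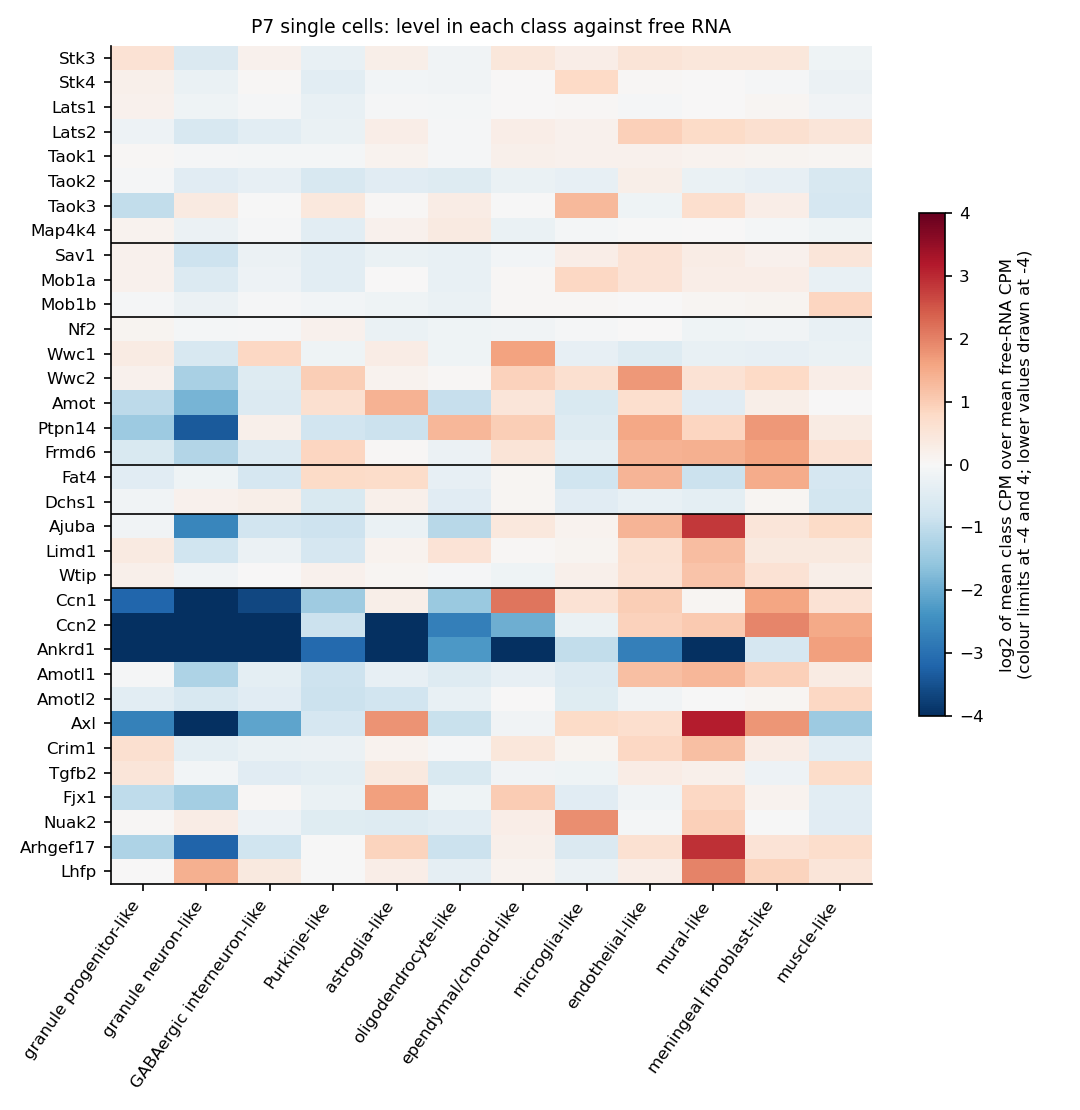
Log2 ratio of the mean CPM of each member in 12 cell classes to its mean in free RNA (barcodes under 100 UMIs) over the P7 libraries, with colours limited to ±4. Lhfp, Arhgef17 and Amotl1 are deepest in mural-like cells, and Ankrd1 in muscle-like cells.

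With all P7 cells of a library summed, many members differed between mutants and controls, at a time when many other genes did too. In Insm1 mutants 20 of 34 members were called (15 higher, 5 lower; edgeR), beside 33.4% of all genes, and in Tead1/2 mutants 27 (19 higher, 8 lower), beside 48.7%. Pathway genes gave 11 of the 22 in Insm1 mutants (8 higher, 3 lower) and 16 in Tead1/2 mutants (10 higher, 6 lower), and targets gave 9 of 12 (7 higher, 2 lower) and 11 of 12 (9 higher, 2 lower). These counts include Ankrd1, which passed the filter on low counts through the mutant libraries, with 3 and 1 UMIs in all in the controls. The median log2 fold change of the members was 0.12 and 0.35, against 0.03 and 0.06 over all genes. Called higher in both alleles were Lhfp (1.71 and 1.86 on the log2 scale), Amotl2 (1.58 and 1.52), Ccn1 (1.32 and 1.29), Arhgef17 (0.93 and 1.13) and Fat4 (0.85 and 1.09), among others, and lower in both were Crim1 (-0.71 and -0.89), Nuak2 (-0.47 and -0.52), Stk3 (-0.29 and -0.34) and Nf2 (-0.21 and -0.33). In sums over all cells, fewer cells of a type and less RNA per cell cannot be told apart, and mutant libraries held 639 to 2439 muscle-like cells where control libraries held 0 to 5.

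Ccn2 was the single member whose change differed between the alleles in all cells, beside 3.5% of all genes. Scaled for library composition (TMM), it was at 0.247 and 0.405 CPM in Insm1 controls, at 0.808, 1.06 and 1.20 in Insm1 mutants, at 0.183 and 0.216 in Tead1/2 controls and at 2.51, 2.52 and 2.86 in Tead1/2 mutants. All mutants exceeded all controls, and the Tead1/2 mutants stood highest. Ccn2 rose by 1.66 in Insm1 and by 3.71 in Tead1/2 mutants on the log2 scale, a difference of -2.05 (adjusted p = 0.018, edgeR). The call on the difference was lost without Insm1 control 2 (-1.66, adjusted p = 0.075), Tead1/2 control 1 (-1.93, adjusted p = 0.084) or Tead1/2 control 2 (-2.19, adjusted p = 0.078), and with Scrublet's own doublet threshold (-1.85, adjusted p = 0.29). Ankrd1, a muscle ankyrin-repeat protein, was counted 3 times in Insm1 controls and 66 times in mutants, a ratio of 21.8 per UMI of depth (exact 95% interval 7.15 to 108.5), and 1 time in Tead1/2 controls against 1036 times in mutants, a ratio of 574 (interval 103 to 22688). The intervals cover counting error only.

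The granule lineage is where Atoh1Cre acts. Its progenitor-like and neuron-like cells were summed per library, together with a granule cluster whose markers tied between those classes. The sum is thus larger than both classes together. For Nf2, Insm1 controls held 6378 UMIs in the sum, 3263 in progenitor-like and 2170 in neuron-like cells. Insm1 mutants held 6314, 3158 and 2874 in that order. The Tead1/2 line held 7596, 4555 and 1681 without Cre, then 6852, 4063 and 2279 with it. In these sums 32 members were tested. In Insm1 mutants 9 were called (7 higher, 2 lower), beside 19.8% of all genes, and in Tead1/2 mutants 12 (9 higher, 3 lower), beside 23.5%; the median over the members was 0.01 and 0.04, against -7.1e-05 and -0.0014 over all genes. Lhfp, Fat4, Ptpn14, Amotl2, Wwc2 and Wtip were higher and Crim1 and Stk3 lower in both alleles, while Arhgef17 went in opposite directions. Lats2, Wwc1 and Frmd6 passed in Tead1/2 mutants and not in Insm1 mutants, and their differences between the alleles did not pass the test. The other 20 tested members (Stk4, Lats1, Taok1, Taok2, Taok3, Map4k4, Sav1, Mob1a, Mob1b, Nf2, Amot, Dchs1, Ajuba, Limd1, Ccn1, Amotl1, Axl, Tgfb2, Fjx1 and Nuak2) were called in neither allele. Granule cells of controls and mutants fell largely into different clusters: clusters 10, 11, 16, 17 and 25 held 99.3% of control and 25.5% of mutant cells, and clusters 12, 13, 14, 15 and 26 held 0.729% and 74.5%.

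Lhfp showed the largest difference. Its granule-lineage level was 72.1 and 64.0 CPM in controls of the Insm1 line, against 500, 557 and 581 in its mutants, and 42.0 and 53.5 CPM in controls of the Tead1/2 line, against 585, 742 and 694. Controls and mutants were far apart in both lines. Lhfp rose 8.14-fold in Insm1 mutants (log2 3.02 ± 0.13, adjusted p = 1.3e-08, edgeR) and 14-fold in Tead1/2 mutants (log2 3.80 ± 0.13, adjusted p = 3.8e-09). It was higher in neuron-like cells, whose mean went from 148 to 825 CPM in the Insm1 line and from 132 to 1074 in the Tead1/2 line, than in progenitor-like cells, whose mean went from 26.2 to 280 and from 22.1 to 470. In free RNA Lhfp was at 131 and 133 CPM in Insm1 controls and at 298 to 304 in mutants, and at 140 and 144 against 276 to 310 in the Tead1/2 line, so the granule level lay below free RNA in controls and above it in mutants.

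Amotl2 and Fat4 moved the same way. Amotl2 was at 26.1 and 22.2 CPM in controls and 47.7, 55.4 and 60.6 in mutants of the Insm1 line, and at 29.0 and 32.9 against 69.1, 89.0 and 78.6 CPM in the Tead1/2 line. It rose 2.28-fold (adjusted p = 1.8e-05) and 2.52-fold (adjusted p = 4.8e-06, edgeR), but its free-RNA level was higher than the granule level throughout and rose alongside it, from 31.0 and 39.0 CPM to 71.6, 78.4 and 92.6 in the Insm1 line, and the part of free RNA in the result was not tested. Fat4 was at 10.9 and 11.5 CPM, then 36.4, 45.3 and 52.7, in the Insm1 line, and at 10.3 and 10.0, then 49.7, 60.9 and 53.2, in the Tead1/2 line. It rose 4.05-fold (adjusted p = 5.9e-07) and 5.31-fold (adjusted p = 1.2e-07, edgeR). The mean of Fat4 in progenitor-like cells went from 5.86 to 42.8 CPM in the Insm1 line and from 5.46 to 58.0 in the Tead1/2 line. In neuron-like cells it went from 18.6 to 48.3 and from 21.1 to 56.9 CPM. Free RNA went from 35.8 and 39.8 to 51.0 to 59.2 CPM and from 29.0 and 32.1 to 39.7 to 55.4. The granule-lineage range of Fat4 moved by more than that of free RNA in both lines. Its granule mean was 44.8 CPM beside 54.1 in free RNA in Insm1 mutants, and 54.6 beside 49.3 in Tead1/2 mutants. The part of free RNA in the rise of Fat4 was not tested.

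Ptpn14, Wwc2 and Wtip were higher in both alleles as well. Ptpn14 was at 2.50 and 2.34 CPM in controls and 5.73, 6.86 and 7.28 in mutants of the Insm1 line, and at 3.18 and 2.95 against 8.17, 10.6 and 11.2 CPM in the Tead1/2 line, 2.74-fold (adjusted p = 5.2e-05) and 3.21-fold (adjusted p = 6.4e-06, edgeR) higher. Free RNA held it at 13.4 and 15.5 CPM in controls and 22.5 to 26.3 in mutants of the Insm1 line, and at 21.2 and 21.6 against 32.8 to 39.9 in the Tead1/2 line, above every granule value and higher in mutants too. Wwc2, a relative of the scaffold KIBRA, was at 24.3 and 23.7, then 42.8, 49.5 and 54.0 CPM in the Insm1 line, and at 22.8 and 23.6, then 39.7, 42.6 and 41.5, in the Tead1/2 line. It rose 2.06-fold and 1.76-fold (adjusted p = 3.6e-06 and 2.2e-05, edgeR), with free RNA at 32.7 to 35.8 CPM in controls and up to 56.3 in mutants. The mean of Wwc2 in neuron-like cells went from 4.12 to 29.9 CPM in the Insm1 line and from 3.62 to 27.2 in the Tead1/2 line. In progenitor-like cells it went from 39.7 to 70.1 and from 34.7 to 53.8 CPM. Wtip was at 9.93 and 9.91, then 15.8, 15.2 and 16.3 CPM, and at 9.96 and 10.9, then 15.1, 17.8 and 15.1, which is 1.61-fold and 1.52-fold higher (adjusted p = 0.00038 and 0.00081, edgeR), with free RNA at 10.8 to 13 CPM in controls and 13.2 to 15.2 in mutants. No granule value of these 3 members overlapped between mutants and controls of a line. How many of all genes separate in this way was not counted, so nothing is read from it.

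Crim1, a transmembrane protein that binds BMPs and TGF-beta ligands, was lower in the granule lineage of both mutants. It was at 70.5 and 88.4 CPM in Insm1 controls and 42.4, 54.6 and 45.3 in mutants, and at 104 and 95.8 against 62.1, 58.6 and 57.5 in the Tead1/2 line. The level was 0.61-fold and 0.59-fold that of controls (log2 -0.72 ± 0.11 and -0.77 ± 0.11, adjusted p = 0.00049 and 0.00022, edgeR), without overlap. Free RNA held Crim1 at 57.9 to 70.3 CPM in controls and 41.2 to 54.2 in mutants, so it was lower there as well. Stk3, a core kinase of the cascade, was at 278 and 298 CPM, then 244, 223 and 237, in the Insm1 line, and at 273 and 249, then 232, 224 and 209, in the Tead1/2 line. In the summed lineage it fell to 0.83-fold and 0.84-fold of the control level (adjusted p = 0.019 and 0.024, edgeR). The mean of progenitor-like cells went from 399.8 to 307.4 CPM in the Insm1 line and from 333.8 to 277.4 in the Tead1/2 line. Neuron-like cells went the other way, from 137.5 to 169 and from 116.5 to 141.7 CPM. Free RNA means of Stk3 were lower in mutants, at 214.7 against 237.4 and at 200.5 against 216.9 CPM. Each of these Stk3 calls was lost in 3 fits that left out 1 library: without Insm1 control 2, mutant 2 or mutant 3 (adjusted p = 0.17, 0.082 and 0.056), and without Tead1/2 control 1, mutant 2 or mutant 3 (adjusted p = 0.24, 0.051 and 0.060).

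Arhgef17, a guanine nucleotide exchange factor, was the member on which the alleles parted. Its granule-lineage level was 6.32 and 6.40 CPM in controls and 7.51, 11.5 and 12.6 in mutants of the Insm1 line, but 10.1 and 9.32 CPM against 3.43, 3.65 and 3.40 in the Tead1/2 line. All Insm1 mutants lay above their controls and all Tead1/2 mutants below theirs. The change was 1.66-fold in Insm1 mutants (log2 0.73 ± 0.18, adjusted p = 0.0099) and 0.354-fold in Tead1/2 mutants (log2 -1.50 ± 0.18, adjusted p = 5.2e-05, edgeR), a difference of 2.23 ± 0.25 on the log2 scale (adjusted p = 0.0012), beside 1.08% of all genes. The rise in Insm1 mutants was lost without Insm1 control 1 (adjusted p = 0.082) or control 2 (adjusted p = 0.061). Free RNA held Arhgef17 at 17.0 and 19.4 CPM in Tead1/2 controls and at 30.5, 34.1 and 31.8 in Tead1/2 mutants, so there the granule level fell while that of free RNA was higher. In the Insm1 line free RNA was higher together with the granule level, at 16.9 and 17.6 CPM in controls and 23.8 to 33.3 in mutants. In progenitor-like cells the mean went from 10.1 to 16.2 CPM in the Insm1 line and from 12.9 to 4.53 in the Tead1/2 line.

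The other member called for a difference between alleles was Lhfp (-0.78 ± 0.16 on the log2 scale, adjusted p = 0.043, edgeR), a call that was lost in 8 fits leaving out 1 library (adjusted p = 0.075 to 0.21). Of the members called in Tead1/2 mutants and not in Insm1 mutants, the kinase Lats2 was at 21.1 and 24.8 CPM in controls and 29.8, 38.1 and 32.2 in mutants, against 20.1 and 17.6, then 20.1, 21.1 and 25.3, in the Insm1 line. Wwc1 (KIBRA) was at 84.2 and 89.1, then 111, 128 and 110 CPM, against 76.9 and 75.5, then 76.1, 90.2 and 93.7. Its mean in progenitor-like cells went from 97.0 to 151.1 CPM in the Tead1/2 line and from 89.5 to 117.2 in the Insm1 line. In neuron-like cells it went from 54.9 to 69.5 and from 49.0 to 57.8 CPM. Frmd6, the relative of fly Expanded, was at 23.5 and 21.2, then 29.7, 31.6 and 28.2 CPM, against 20.4 and 18.9, then 19.6, 18.2 and 20.7. Their rises in Tead1/2 mutants were 1.44-fold, 1.33-fold and 1.32-fold (adjusted p = 0.0086, 0.0048 and 0.0069, edgeR). Free RNA of the Tead1/2 line was higher in mutants too, at 36.3 to 42.2 against 26.3 and 28.7 CPM for Lats2, 89.6 to 100.4 against 85.0 and 88.1 for Wwc1, and 50.2 to 54.0 against 31.9 and 35.6 for Frmd6. The calls of Lats2 and Wwc1 were lost without Tead1/2 control 1 (adjusted p = 0.14 and 0.068) and that of Frmd6 was lost without Tead1/2 control 2 (adjusted p = 0.097).

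The classical targets were at low levels in the granule lineage. The mean of Ccn1 went from 0.107 to 0.477 CPM between controls and mutants of the Insm1 line and from 0.165 to 0.366 in the Tead1/2 line, below the free-RNA means of 1.57, 3.57, 3.21 and 5.60 of those 4 groups. Ccn2 gave 2, 2, 1 and 5 UMIs in the same order and Ankrd1 gave 0, 1, 1 and 3, and both were left out of the test. Ccn1 was not called, at 1.93 (adjusted p = 0.061) in Insm1 and 1.23 (adjusted p = 0.19) in Tead1/2 mutants on the log2 scale (edgeR), and it was called in 3 of 13 alternative fits in Insm1 mutants. The summed CPM of the 18 muscle markers in granule-lineage cells was 67.7 to 93.6 in controls, 181 to 227 in Insm1 mutants and 317 to 883 in Tead1/2 mutants. The part of muscle RNA in the granule-lineage rises was not tested.

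**Figure D4:**
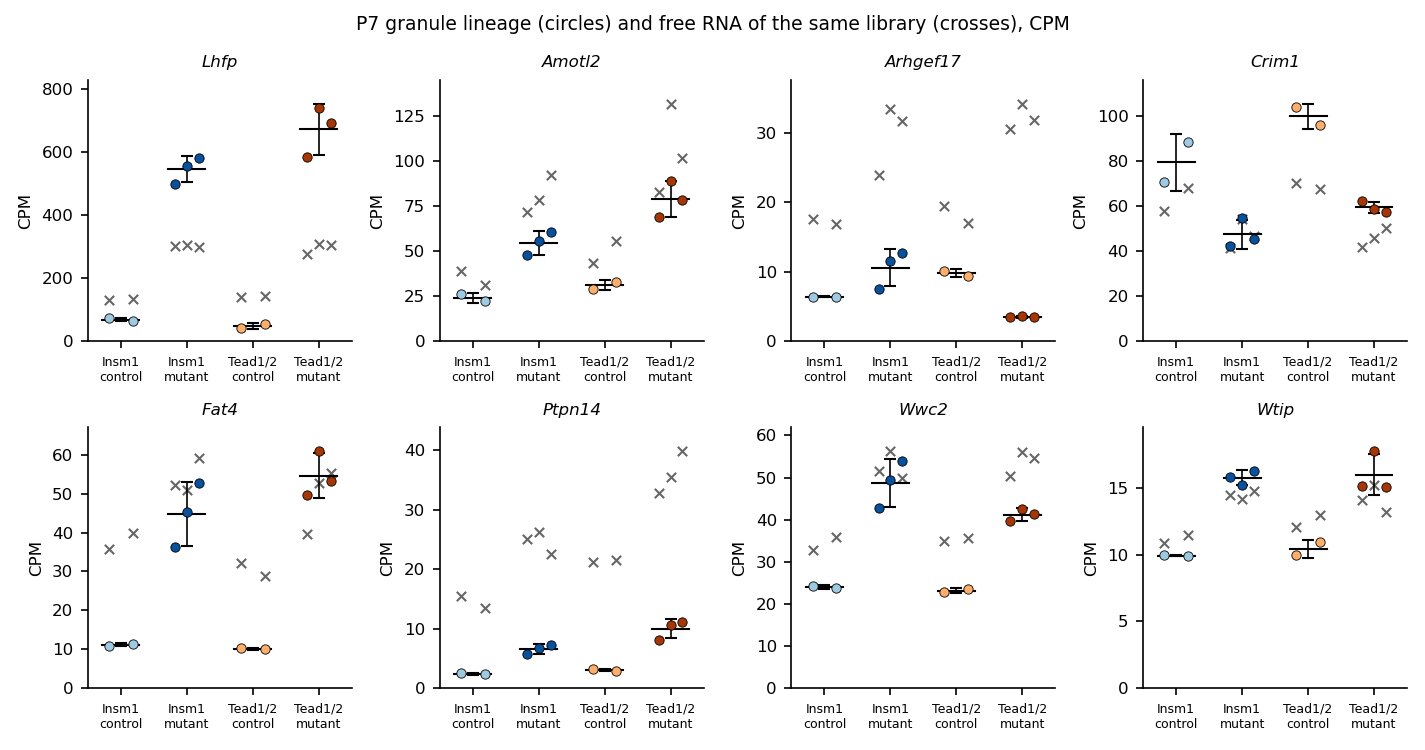
CPM of 8 members in the summed granule-lineage cells of each P7 library (circles) and in free RNA of the same library (crosses), by group, with the mean and SD of the circles. Lhfp lies under free RNA in controls and above it in mutants, and Arhgef17 is higher in Insm1 mutants and lower in Tead1/2 mutants than in their controls.

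Genes of the pathway beyond the 34 members were counted from a fixed list of 49, and further targets from a list of 10. In the granule lineage 14 of 47 tested pathway genes were called in Insm1 mutants (9 higher, 5 lower) and 14 in Tead1/2 mutants (10 higher, 4 lower), beside 19.8% and 23.5% of all genes. Tead4, a TEAD factor expressed in developing skeletal muscle, rose most in both (3.98 and 4.10 on the log2 scale), and both coactivators rose, Yap1 by 1.51 and 1.52 and Wwtr1 by 1.44 and 2.19. Crb1, an apical polarity protein, rose by 1.69 and 3.36. Tead2 fell by 1.72 in Tead1/2 mutants, while transcripts of Tead1 were higher by 1.14 there. Of 9 tested further targets, 5 were called in each allele, 4 higher and 1 lower (Gadd45a, -0.49) in Insm1 mutants and 5 higher in Tead1/2 mutants. Among them were Myof (1.3 and 2.96) and Dock5 (1.20 and 1.31), both higher. At P2, Tead4 was the single called gene of the 48 tested in Insm1 mutants (1.06, adjusted p = 0.018, edgeR), beside 0.689% of all genes. In Tead1/2 mutants 0 of 48 were called with all libraries, and Tead4 (1.71), Yap1 (0.35) and Tead2 (-0.35) were called without the library labelled mutant 4, beside 3.19% of all genes.

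Outside the granule lineage the members were tested in 6 classes, in 390 tests of which 104 gave a call, 87 higher and 17 lower in mutants. With Scrublet's own doublet threshold 5 of the classes could be fitted, and 0 of their 98 calls remained and 0 of all genes were called (edgeR; 10 tests of members had an unadjusted p under 0.05), with 73 changes in the same and 23 in the opposite direction. Of the 104 calls, 50 were lost in at least 1 fit that left out 1 library. Over these classes 18 members were called higher at least 1 time, 5 lower and 11 in no test. Such counts over several tests were not made for all genes, whose share per single test is given by class below. Lhfp and Amotl2 were called higher in all 6 classes in both alleles, and no member was called for a difference between alleles in any of them. For Lhfp the log2 fold changes in Insm1 and Tead1/2 mutants were 1.96 and 2.02 in microglia-like cells, 1.67 and 1.60 in oligodendrocyte-like cells, 1.51 and 1.59 in astroglia-like cells, 1.45 and 1.45 in GABAergic interneuron-like cells, 1.38 and 1.54 in endothelial-like cells and 1.01 and 0.48 in meningeal fibroblast-like cells. In meningeal fibroblast-like cells the Tead1/2 call was lost without Tead1/2 control 1, control 2 or mutant 3 (adjusted p = 0.15, 0.17 and 0.061), and with Scrublet's own threshold the Insm1 change of Lhfp was -0.47 there and -0.02 in GABAergic interneuron-like cells. For Amotl2 they ran from 1.15 to 1.55 in Insm1 and from 0.67 to 1.59 in Tead1/2 mutants. The Tead1/2 call of Amotl2 was lost without Tead1/2 control 1 or control 2 in endothelial-like (adjusted p = 0.25 and 0.17) and in meningeal fibroblast-like cells (0.12 and 0.080), and in endothelial-like cells also without mutant 1 or mutant 2 (0.082 and 0.13). In astroglia-like cells Lhfp went from a mean of 125 to 367 CPM in the Insm1 line and from 130 to 400 in the Tead1/2 line, beside 132 to 302 and 142 to 297 in free RNA.

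Crim1 was called lower in both alleles in astroglia-like, GABAergic interneuron-like, microglia-like and oligodendrocyte-like cells, by -0.46 to -1.05 on the log2 scale, calls lost in microglia-like cells without Insm1 control 2 (adjusted p = 0.076) or, in the other allele, Tead1/2 control 1 (adjusted p = 0.21). With Scrublet's own threshold its change in microglia-like cells of Insm1 mutants was 0.0854. Fat4 was called higher in 9 of 12 tests, Wwc2 in 8, Ptpn14, Lats2 and Arhgef17 in 7 each and Frmd6 in 6. Arhgef17 was among those higher in astroglia-like (0.81 and 0.79), meningeal fibroblast-like (0.56 and 0.89) and microglia-like cells (1.01 and 1.31) of both mutants. With Scrublet's own threshold its change in meningeal fibroblast-like cells of Insm1 mutants was -0.53. Its calls in microglia-like cells and in meningeal fibroblast-like cells of Insm1 mutants were each lost in 2 to 4 fits that left out 1 library (adjusted p = 0.058 to 0.27). Ccn2 was called in meningeal fibroblast-like cells of Tead1/2 mutants (2.03, adjusted p = 0.014, edgeR), where its mean went from 2.27 to 9.08 CPM, a call lost without Tead1/2 control 1 or control 2 (adjusted p = 0.15 and 0.067). Ajuba was called in microglia-like cells of Tead1/2 mutants (2.58, adjusted p = 0.0062), from 1.27 to 6.24 CPM, with 3 and 5 UMIs in the control libraries, and the call was lost without Tead1/2 control 1 (1.51, adjusted p = 0.18). The 18 muscle markers summed to 56.7 and 72.5 CPM in meningeal fibroblast-like cells of Tead1/2 controls and 6775 to 18718 in those of mutants, and to 57.4 and 81.1 against 11838 to 18361 in microglia-like cells.

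By class, 14 and 16 of 32 tested members were called in astroglia-like cells of Insm1 and Tead1/2 mutants, beside 24.8% and 26.4% of all genes, 11 and 10 of 31 in GABAergic interneuron-like cells (18.6% and 19.5%), and 7 and 11 of 32 in oligodendrocyte-like cells (16.3% and 25.8%). The counts were 7 and 11 of 33 in microglia-like cells (10.5% and 17.5%), 3 and 8 of 34 in meningeal fibroblast-like cells (13.6% and 20.3%) and 4 and 2 of 33 in endothelial-like cells (8.95% and 7.4%). Muscle markers moved with all of them: their summed CPM was 45.4 to 82.8 in controls over the 6 classes. In Insm1 and Tead1/2 mutants it reached 1271 and 2797 in astroglia-like, 1161 and 3162 in GABAergic interneuron-like, 2690 and 7548 in oligodendrocyte-like, 5000 and 13227 in endothelial-like, 6126 and 18361 in microglia-like and 6962 and 18718 in meningeal fibroblast-like cells. The last 2 classes of Tead1/2 mutants thus reached the level of muscle-like cells of Insm1 mutants, 18278 to 22720. Free RNA held 983 to 2403 CPM in controls and 6837 to 20870 in mutants. The part of muscle RNA in these changes was not tested.

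Muscle-like cells were found almost entirely in mutants and held 46 of 66 Ankrd1 UMIs in Insm1 mutants and 893 of 1036 in Tead1/2 mutants. Clusters 6, 7, 28 and 33 made up this class, with 639 to 1039 cells in each Insm1 mutant and 1372 to 2439 in each Tead1/2 mutant. Since controls hold too few such cells, the mutants of the 2 alleles were compared with each other, a comparison chosen after the class levels were seen. Here 18 of 34 members were called, 15 higher and 3 lower in Tead1/2 mutants (edgeR), beside 29.7% of all genes, and the median over the members was 0.19 against 0.01 over all genes. All 7 targets called and 8 of the 11 pathway genes called were higher in the Tead1/2 mutants. These counts include Ankrd1, whose Tead1/2 libraries alone were enough to pass the filter on low counts, with 46 UMIs in all in Insm1 mutants. Line, sequencing library and allele cannot be told apart in this comparison.

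Ankrd1 was at 1.07, 0.703 and 0.238 CPM in muscle-like cells of Insm1 mutants and at 9.72, 5.16 and 6.75 in those of Tead1/2 mutants. The log2 difference was 3.47, given as a description, since the libraries where Ankrd1 is high were enough to pass the filter. Ccn1 was at 3.35, 2.52 and 2.14 CPM against 9.56, 7.63 and 8.16 (1.73 ± 0.18, adjusted p = 0.00034, edgeR). Ccn2 was at 2.04, 2.26 and 3.14 against 5.11, 3.97 and 5.62 (1.04 ± 0.21, adjusted p = 0.0062). The values of these 3 targets did not overlap between the groups. How many of all genes separate in this way was not counted, so nothing is read from it. Free RNA differed the same way, with means of 0.532 CPM in Insm1 and 3.31 in Tead1/2 mutants for Ankrd1, 3.57 and 5.60 for Ccn1 and 1.35 and 2.11 for Ccn2, and Ccn1 in muscle-like cells of Insm1 mutants was below it. The part of free RNA in these differences was not tested. Arhgef17 was at 31.7, 36.8 and 31.6 CPM against 54.6, 42.9 and 51.9 (0.64 ± 0.11, adjusted p = 0.0035). Amotl1 (0.60), Tgfb2 (0.32), which encodes a TGF-beta ligand, and Amotl2 (0.29) were called higher by less, the last a call lost in 4 of 6 fits that left out 1 library (adjusted p = 0.063 to 0.11).

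Among pathway genes of muscle-like cells, Ptpn14 was at 26.6, 19.3 and 20.1 CPM in Insm1 mutants and 43.4, 38.4 and 43.0 in Tead1/2 mutants, Lats2 at 34.4, 34.5 and 41.2 against 53.4, 51.4 and 52.9, and Ajuba at 4.61, 2.89 and 3.81 against 6.78, 6.87 and 7.39. These were differences of 0.99, 0.59 and 0.97 on the log2 scale (adjusted p = 0.00084, 0.00099 and 0.0028, edgeR). Their groups did not overlap, a count that was not made over all genes. Sav1 (0.44), Mob1b (0.43), Frmd6 (0.42), Limd1 (0.22) and Wwc2 (0.19) were also called higher, and the calls of Limd1, Wwc2, Stk3 and Dchs1 were each lost in 3 to 5 of 6 fits that left out 1 library (adjusted p = 0.054 to 0.14). The kinases Taok3 (-0.44) and Stk3 (-0.22) and the cadherin Dchs1 (-0.38) were called lower, Taok3 at 41.6, 38.5 and 40.9 CPM against 26.5, 31.6 and 26.9. Lhfp was at 333, 343 and 363 against 270, 336 and 314 CPM and was not called, so in muscle-like cells it was at a level between the granule neuron-like means of controls and mutants. The muscle-marker sum of these cells was itself 18278 to 22720 CPM in Insm1 and 36630 to 49299 in Tead1/2 mutants, and that of 12 meningeal markers 2245 to 2642 and 3561 to 3965. Meningeal fibroblast-like cells themselves held as little as 2359 CPM of those meningeal markers, below the muscle-like cells of Tead1/2 mutants. The part of meningeal RNA in the differences was not tested. With Scrublet's own doublet threshold, which marks up to 55.33% of a library and none in others, 0 members and 0 of all genes were called in this comparison.

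**Figure D5:**
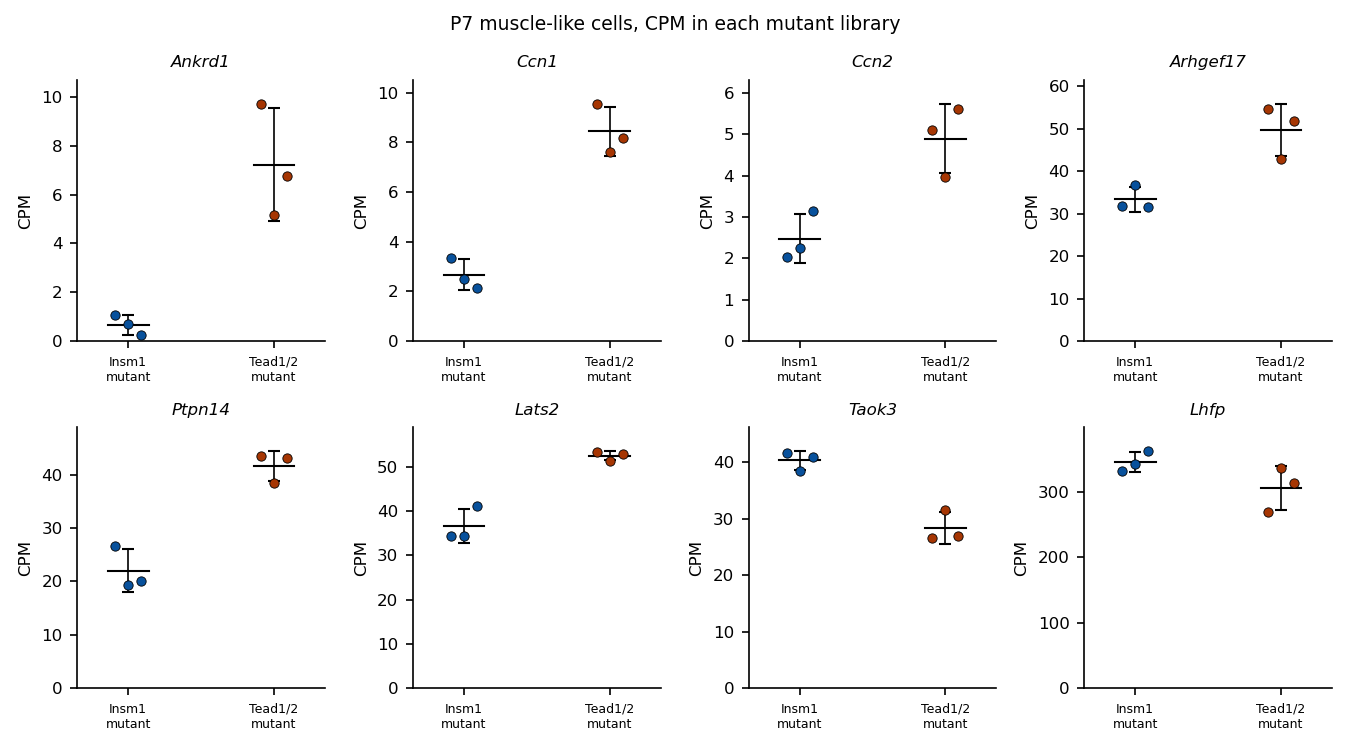
CPM of 8 members in muscle-like cells of each P7 mutant library, with group means and SD, for 3 Insm1 and 3 Tead1/2 mutants. Ankrd1, Ccn1, Ccn2, Arhgef17, Ptpn14 and Lats2 are higher and Taok3 lower in the Tead1/2 mutants without overlap, while Lhfp overlaps. How many of all genes separate in this way was not counted.

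The controls of the 2 lines differed in some members as well. Ptpn14 in all cells had a mean of 13 CPM in Insm1 controls and 20.6 in Tead1/2 controls, and Ccn1 had 1.43 and 5.66 CPM in astroglia-like and 4.69 and 18.9 CPM in meningeal fibroblast-like cells. A comparison of mutants across the lines thus carries the difference between the lines, and allele and line cannot be told apart.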

How the data were processed

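Of the 53 samples of the series, 15 P2 bulk RNA-seq libraries and the P7 single-cell sample of 10 libraries were used; other assays were not analysed here. The P2 tables hold the authors' deposited expected counts per gene from RSEM, of which 6.84 to 8.77% per library are not whole; they were rounded. The submitters' processing notes name Trim Galore 0.6.3, STAR 2.7.9a, RSEM 1.3.3, Seurat 4.4.0, GRCm38.p6 and mm10. The P7 matrices hold deposited UMI counts per barcode. P2 columns were matched to samples by description, since the names of the 2 tables are swapped relative to their columns.

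Groups were compared with edgeR 4.0.16 (TMM, filterByExpr, quasi-likelihood test, Benjamini-Hochberg over all genes tested, threshold 0.05; R 4.3.3), each P2 allele fitted alone, with DESeq2 1.42.0, no filter, a replicate block, 1 fit of all 15 P2 libraries and leaving out each library as alternatives. The difference between alleles was an interaction term, Insm1 minus Tead1/2.

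P7 cells had at least 1000 UMIs and 500 genes and under 15% mitochondrial UMIs. The 4% of highest Scrublet scores in each library were left out as doublets, because Scrublet's own threshold marked 0 to 55.33% per library. The 76640 cells kept, of 79838, were clustered with scanpy 1.11.5 (Python 3.11.15) into 35 clusters, named from marker lists; 3 clusters (5754 cells) stayed unnamed, and class names here are rebuilt and may differ from the study's. Counts were summed per library and class and tested as above. Free RNA is the sum over barcodes under 100 UMIs (7023774 to 11159980 UMIs per library).

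The members and lists were chosen with earlier results of these data known. All 34 members are named; values per library are given for members called at P2 or in the granule lineage and for the 2 of each role with the smallest p at P2, and other lists by counts and at most 6 called genes. The muscle comparison was added after levels were seen. Replicate numbers did not pair samples: same-numbered deviations correlated by -0.129 to 0.229 at P2 and -0.120 to 0.0506 at P7. On simulated data with 19582 genes for the P2 Insm1 comparison, 28.4% of genes changed by 0.5, 71.6% by 1 and 90.9% by 2 on the log2 scale were called, and with 17086 genes for the granule lineage in Insm1 mutants 29.9%, 56.7% and 86.4%. Genes left unchanged were called as well, 15 in the P2 run and 9 in the granule-lineage run.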

Additional observations from a re-analysis of the deposited data

Results flagged for a closer look

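Among 102 member and group combinations of 4 libraries at P2, 14 had a library whose gap to its nearest neighbour was a larger share of the group's range than Dixon's 95% critical value allows, and chance gives about 1 in 20. Insm1 mutant 1 stood apart in 5 members, with low Dchs1 (95.2 CPM), Fat4 (133.9), Lats1 (85.8) and Crim1 (23.7) or high Ccn2 (2.45). Tead1/2 mutant 2 was high in Sav1 (27.3 CPM), Mob1a (77.3) and Wtip (10.45), Tead1/2 mutant 3 in Fat4 (154.4) and Tgfb2 (24.9), and Tead1/2 mutant 1 in Ccn1 (3.14) and Ankrd1 (0.0224). Ankrd1 was also high in Insm1 control 4 (0.0596 CPM), both values being close to 0. The library labelled Tead1/2 mutant 4 stood apart for Lhfp (31.9 CPM), at the level of the controls.

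The change in mutants differed between the alleles, by the interaction term of edgeR, for Ccn2 in all P7 cells (-2.05 on the log2 scale, Insm1 minus Tead1/2), where both rose, for Arhgef17 in the granule lineage (2.23), where it rose in one and fell in the other, and for Lhfp in the granule lineage (-0.78), where both rose.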

How the results depend on the processing

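No member called at P2, in all P7 cells or in the granule lineage changed sign under an alternative. At P2, the call on Lhfp in Insm1 mutants held in all 12 alternatives. In Tead1/2 mutants 0 members were called with all libraries by edgeR (0% of all genes), 1 by DESeq2 (6.28%), 3 without a low-count filter (3.14%), 2 with the replicate block (1.17%), and 0 to 2 when leaving out 1 library, the 2 being found without mutant 4 (3.19%), where DESeq2, chosen after seeing the data, called 6 (6.74%). The block gives Tead1/2 mutant 4, which has no control of its number, a term of its own, so that library adds nothing to the blocked value. The replicate block left 1 call in Insm1 mutants and 0 for the difference between alleles at P2, and 20, 27, 9, 12, 2 and 104 calls at P7, as without it, for all cells of Insm1 and Tead1/2 mutants, the granule lineage of each, its difference between alleles and the other classes. The equal P7 counts are not read as support. The mutants numbered 3 have no control of their number there, and whether the block changed those fits was not checked. The 2 granule-lineage differences between alleles became 1 to 2 when leaving out 1 library, and 1 with an unnamed cluster rich in control cells added (Lhfp adjusted p = 0.060, edgeR; chosen after seeing the data). The 18 calls in muscle-like cells became 13 to 18 when leaving out 1 library and 0 with Scrublet's own threshold; the cause was not tested. With Scrublet's own threshold endothelial-like cells could not be fitted, since a library is left with 0 of their UMIs, so no count over the 6 other classes is given for it. In the 5 classes fitted 0 of 98 calls remained, and 24 changes, 1 of them in muscle-like cells, took the opposite sign. In Insm1 mutants these were, on the log2 scale, Lats2 (-0.30), Nf2 (0.12), Wwc2 (-0.11), Amot (-0.37), Frmd6 (-0.43), Fat4 (-0.20), Axl (-0.22) and Fjx1 (-0.60) in astroglia-like cells, Wwc1 (-0.15), Ptpn14 (-0.0401), Wtip (-0.0265), Arhgef17 (-0.36) and Lhfp (-0.0231) in GABAergic interneuron-like cells, Arhgef17 (-0.53) and Lhfp (-0.47) in meningeal fibroblast-like cells, Axl (-0.46) and Crim1 (0.0854) in microglia-like cells, and Stk3 (0.21), Wwc2 (-0.22), Ptpn14 (-0.16), Fat4 (-0.0512) and Amotl2 (-0.0474) in oligodendrocyte-like cells. The other two were Frmd6 in microglia-like cells of Tead1/2 mutants (-0.0114) and Amotl2 in muscle-like cells (-0.46). The cause was not tested. Calls on single members were lost in 14 and 10 member and alternative combinations in all cells of Insm1 and Tead1/2 mutants in 5 and 6 in the granule lineage, and, for differences between alleles, in 4 in all cells and 9 in the granule lineage. DESeq2's scaling moved the median of all genes in the P2 difference between alleles to 0.11, from -0.01. Members under about 1 CPM are limited by depth, which holds for Ankrd1 and Ccn2 in most classes and for Ccn1 in granule and GABAergic interneuron-like cells. With 2 control libraries per line at P7 the spread of controls is poorly known.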
